A study of Mus musculus with 8 samples.

Results

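The 9 genes described here make the immunoproteasome and load peptides onto major histocompatibility complex (MHC) class I molecules. They are the inducible catalytic subunits Psmb8, Psmb9 and Psmb10, the proteasome activator subunits Psme1 and Psme2, the peptide transporter subunits Tap1 and Tap2, the transporter-bound chaperone tapasin (Tapbp), and the class I light chain B2m. They were chosen by name from the probe annotation of the scanner files, and all 9 were among the 19337 genes kept on the arrays, represented by 14 of 41174 probes. Each of the 14 probes passed the detection limit on 7 or all 8 of the arrays.

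Proteasomes cut cytosolic proteins into peptides, and in cells exposed to interferon, and constitutively in many immune cells, the catalytic subunits Psmb5, Psmb6 and Psmb7 of newly built core particles are replaced by Psmb8, Psmb9 and Psmb10. The activator built from Psme1 and Psme2 opens the core particle, the Tap1 and Tap2 heterodimer carries the peptides into the endoplasmic reticulum, and tapasin holds an empty class I molecule of heavy chain and B2m at the transporter until a peptide is bound. The intestinal epithelium displays class I molecules to the lymphocytes that lie within and beneath it.

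RNA of mouse small-intestinal organoids, epithelial structures grown from crypts, was compared on 8 Agilent arrays with 2 colours, each carrying the RNA of a culture and that of a control. All organoids had a 16 h pulse of 4OH-tamoxifen, which activates the CreERT2 recombinase; in the genotype named VillinCreERT2 the promoter of the epithelial gene villin drives it. In experiment 1, 2 arrays with swapped dyes compared Ascl2 transduced organoids, in which the pulse induces a CMV-driven Ascl2 transgene and RNA was extracted after 24 h, with VillinCreERT2 organoids. In experiment 2, 1 array each compared organoids labelled Tcf7l2null (Tcf7l2 deleted by the pulse), Tcf7l2null with Ascl2 overexpression, and Ascl2 overexpression alone with dsGFP transduced organoids, in which the pulse induced GFP. In experiment 3, 1 array compared Ascl2null organoids (Ascl2 deleted by the pulse) with VillinCreERT2 organoids. Experiments 2 and 3 each had a self-self array, with the control RNA in both colours. Ascl2 is a basic helix-loop-helix factor that marks the stem cells of the crypt. Tcf7l2 binds DNA as a partner of beta-catenin in Wnt signalling. The labels name no clones, animals or separate cultures, so the spread between the 2 arrays of experiment 1 may be technical. For the control of experiment 3 the genotype field says VillinCreERT2 and the description of the self-self array names floxed Ascl2 organoids.

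Each value below is the log2 of the culture's signal divided by the control's, so that 1 is a 2-fold higher level; the RNA of the culture is called own RNA. Between 50.1% and 61.1% of an array's spots were well above background in Cy3 and between 53.8% and 67.4% in Cy5, and none was saturated. Precision is limited by how few arrays there are. The single Ascl2 probe read -0.31 and 0.12 in experiment 1, -0.93 on the array of Tcf7l2 null with Ascl2 overexpression, -0.72 on the Ascl2 overexpression array of experiment 2 and -1.06 on the Ascl2 null array. The brightest of 3 Tcf7l2 probes read -0.35 with the label Tcf7l2 null and 0.18 where Ascl2 overexpression was added to it. The labels do not say which parts of these genes the transgene or the deletions hold, so neither gene's probes can test a label. Conditions are named as labelled, and every direction below rests on those names. All 10 epithelial markers (Epcam, Cdh1, Vil1, keratins and others) were above background in both channels of every array. Krt18 was the 1 gene of the lists to pass the test of Ascl2 overexpression over 3 arrays described below (0.98 ± 0.08, SE, n = 3; limma adjusted p = 0.0352; higher on 2 of 2 arrays in experiment 1 and on that of experiment 2). In Ascl2 null organoids Krt19 was the highest epithelial marker (1.04) and Cdx2 the lowest (-1.43), and with Tcf7l2 null and Ascl2 overexpression Krt20 (0.63) and Cdx2 (-0.53) were. On the self-self array of experiment 3 Krt19 read 0.79 and Cdx2 0.33. Of 14 stromal and endothelial markers 3 to 8 were above background in own RNA and 3 to 7 in control RNA, and the endothelial Pecam1 on no array. Their extremes on the same arrays were Col1a2 (0.66) and Col3a1, which was below background in both channels, and Pdgfrb (0.59) and Acta2 (-0.77). Col1a2 read 0.62 on the self-self array of experiment 3.

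The probe sequences that give the main values are shown because they tell which transcripts were measured; they are 60 bases long and printed in lower case as in the array's annotation. The array places them on chromosome 17, without naming the genome build: the brighter Psmb8 probe from 34337771 to 34337830, the dimmer one from 34337828 to 34338152, a span longer than the probe, the Psmb9 probe from 34319174 to 34319233 and the Tap1 probe from 34330854 to 34330913. Exons were not analysed here.
Psmb8, brighter probe: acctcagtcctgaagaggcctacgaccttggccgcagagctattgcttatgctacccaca
Psmb8, dimmer probe: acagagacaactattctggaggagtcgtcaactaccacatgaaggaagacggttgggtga
Psmb9: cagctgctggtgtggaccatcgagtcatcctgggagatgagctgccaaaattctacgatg
Tap1: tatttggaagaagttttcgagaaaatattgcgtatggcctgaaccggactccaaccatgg

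The promoters of Psmb8 and Psmb9 are shown because these 2 genes had the largest ratios, and because Psmb9 and Tap1 are read outward from a shared stretch. The RefSeq windows (GRCm38.p6) run from 250 bases before to 50 bases after the annotated start, at chr17:34197945-34198244 on the plus strand for Psmb8 and at chr17:34187281-34187580 on the minus strand for Psmb9. The Tap1 window, at chr17:34187306-34187605 on the plus strand, shares 275 of its 300 bases with that of Psmb9, and the 2 annotated start sites are 226 bases apart. Capitals mark the motif matches found.
Psmb8 promoter: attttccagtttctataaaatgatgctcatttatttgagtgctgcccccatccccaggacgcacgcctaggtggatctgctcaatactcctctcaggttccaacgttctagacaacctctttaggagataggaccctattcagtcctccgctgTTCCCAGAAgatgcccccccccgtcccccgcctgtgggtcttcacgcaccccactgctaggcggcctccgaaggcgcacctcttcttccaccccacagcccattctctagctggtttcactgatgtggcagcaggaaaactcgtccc
Psmb9 promoter: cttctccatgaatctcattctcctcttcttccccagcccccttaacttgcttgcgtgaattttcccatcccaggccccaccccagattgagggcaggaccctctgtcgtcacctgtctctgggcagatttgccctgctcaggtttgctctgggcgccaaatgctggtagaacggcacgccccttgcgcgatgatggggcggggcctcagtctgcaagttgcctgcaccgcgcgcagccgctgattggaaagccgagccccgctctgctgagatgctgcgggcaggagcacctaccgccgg

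Motifs of 4 kinds were searched on both strands in the windows of the 8 genes that have one. The pair GAAA and GAAA with 2 other bases between, of the kind bound by interferon regulatory factors, was found in Psme1 and B2m, and in 3.44% of 32851 promoter windows. The core TTCNNNGAA, of the kind bound by STAT factors, was found in the Psmb8 window alone among the 8 genes, at 97 bases before the start, and in 8.3% of all windows. The E-box CAGCTG, of the kind bound by Ascl factors, was found in none of the 8 and in 16.3% of all windows. The TCF/LEF-type core CTTTGAT was found in none of the 8 and in 3.73% of all windows. No overlap between motifs occurred in these windows.

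The largest ratios of the 9 genes belonged to Psmb8, the inducible subunit that takes the place of Psmb5. Its ratio was -1.47 and -0.88 on the 2 arrays of experiment 1 (2.78-fold and 1.84-fold lower), -0.54 in Tcf7l2 null organoids, 2.09 in Tcf7l2 null organoids with Ascl2 overexpression, 1.62 with Ascl2 overexpression in experiment 2 (4.25-fold and 3.08-fold higher), and 4.31 in Ascl2 null organoids (19.8-fold higher). The self-self arrays read 0.12 and -0.08. Psmb8 was thus lower than control on both Ascl2 overexpression arrays of experiment 1 and higher on that of experiment 2. In Ascl2 null organoids it had the 13th highest ratio of 19307 genes, and in experiment 1 the 15th and 243rd lowest of 19328 and 19246.

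The dimmer Psmb8 probe gave -1.39 and -1.14 in experiment 1, -0.41, 2.36 and 1.77 on the arrays of Tcf7l2 null, Tcf7l2 null with Ascl2 overexpression and Ascl2 overexpression, and 4.21 in Ascl2 null organoids. Both probes had the same sign on each of these 6 arrays. In the control channel of the Ascl2 null array the dimmer probe was not well above background, so its value there is a bound, at least 18.5-fold higher, taken from each channel after loess and quantile scaling and open to dye bias.

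The channel levels of Psmb8 differed between the controls. After quantile scaling across arrays, its log2 intensity in control RNA was 8.99 and 8.86 in experiment 1 and 9.06 to 9.52 in the dsGFP RNA of experiment 2, but 6.60 and 6.87 in the control RNA of experiment 3. The own RNA of Ascl2 null organoids read 11.17, between the 10.68 of Ascl2 overexpression and the 11.61 of Tcf7l2 null with Ascl2 overexpression in experiment 2. The control of experiment 3 was thus the lowest of the controls on this probe. It was near 6.54, the control reading of the dimmer probe on the Ascl2 null array, which was not well above background. Both channels of that experiment's self-self array were as low, at 6.52 and 6.60, so its -0.08 says little about spread at higher levels. The Ascl2 null ratio is taken against this low control. Over the processing settings tried, that ratio ran from 4.11 to 5.67. The slide differs with the control, and the 2 cannot be told apart.

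**Figure D1:**
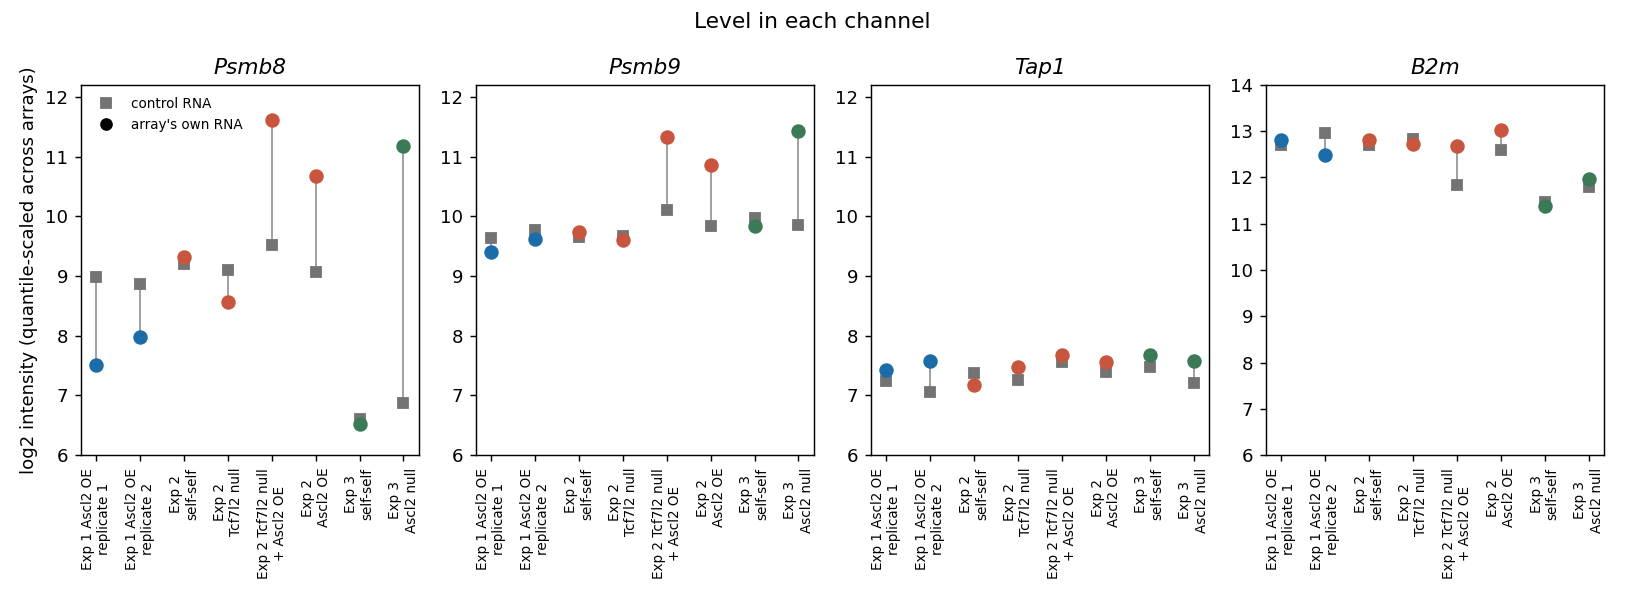
Log2 intensity (vertical axes, quantile-scaled across arrays) of Psmb8, Psmb9, Tap1 and B2m on the 8 arrays (horizontal axes; OE, overexpression), with squares for control RNA and circles for the array's own RNA. The Psmb8 squares of experiment 3 lie at 6.60 and 6.87, below the 8.86 to 9.52 of the other controls, while the Psmb9 squares lie between 9.64 and 10.10 on all arrays.

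Psmb9, the counterpart of Psmb6, had the same signs as Psmb8. Its ratios were the next largest in Tcf7l2 null with Ascl2 overexpression, in Ascl2 overexpression of experiment 2 and in Ascl2 null organoids. It read -0.23 and -0.15 in experiment 1, -0.07 in Tcf7l2 null organoids, 1.22 with Ascl2 overexpression added, 1.03 with Ascl2 overexpression in experiment 2 and 1.57 in Ascl2 null organoids (2.33-fold, 2.05-fold and 2.98-fold higher), with 0.08 and -0.13 on the self-self arrays. The values of experiment 1 and of Tcf7l2 null lie close to the self-self values, and the remaining 3 lie above them. The control level of Psmb9 was 9.64 to 10.10 on all 8 arrays, so here the 3 higher ratios go with higher own RNA, at 10.87 to 11.43.

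Psmb10, the counterpart of Psmb7, had small ratios. It read -0.24 and -0.30 in experiment 1, -0.14, 0.26 and 0.15 in experiment 2 (Tcf7l2 null, Tcf7l2 null with Ascl2 overexpression, Ascl2 overexpression) and 0.50 in Ascl2 null organoids, against self-self values of 0.03 and -0.14. It did not reach 1.5-fold on any array.

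The constitutive subunits that these 3 replace were measured on the same arrays. Psmb5 read -0.29 and 0.29 in experiment 1, -0.06, -0.12 and -0.04 in the same order in experiment 2, and 0.05 in Ascl2 null organoids. Psmb6 read -0.31 and 0.09, then 0.07, 0.09 and 0.36, then 0.18, and Psmb7 read 0.27 and 0.57, then 0.50, 0.08 and 0.28, then -0.02. Within an array, the ratio of Psmb8 less that of Psmb5 was -1.18 and -1.17 in experiment 1, -0.48, 2.20 and 1.66 in experiment 2 and 4.26 in Ascl2 null organoids. Psmb9 less Psmb6 was 0.07 and -0.24 in experiment 1, -0.14, 1.13 and 0.68 in experiment 2 and 1.40 in Ascl2 null organoids. Psmb10 less Psmb7 was -0.51 and -0.87, then -0.63, 0.17 and -0.12, then 0.52. The self-self array of experiment 3 gave -0.03, -0.13 and -0.36 for the 3 pairs. These differences were not tested. For the first pair the size of the difference came mostly from Psmb8, while in the third Psmb7 was farther from 0 than Psmb10 in experiment 1, in Tcf7l2 null and in Ascl2 overexpression.

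**Figure D2:**
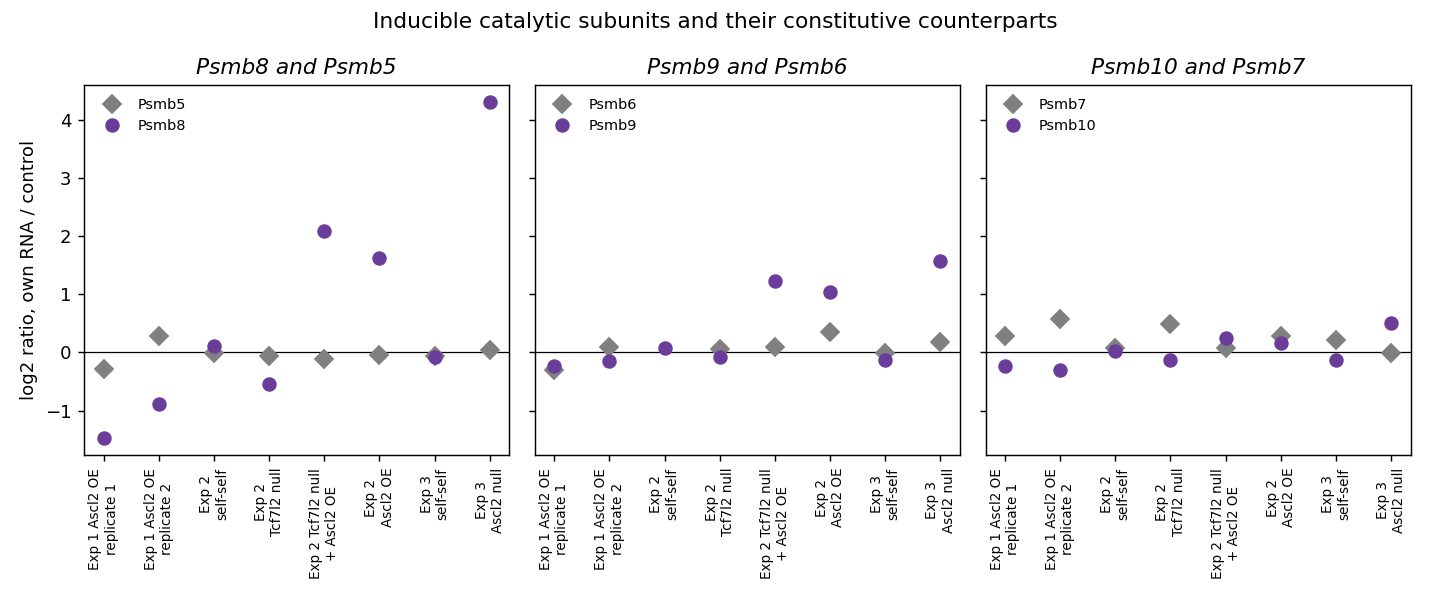
Log2 ratio of own RNA over control (vertical axis) for each inducible catalytic subunit (circles) and its constitutive counterpart (diamonds) on the 8 arrays (horizontal axes; OE, overexpression); Psmb6 has no value on the experiment 2 self-self array. Psmb5 stays between -0.29 and 0.29 on all arrays while Psmb8 runs from -1.47 to 4.31.

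The activator subunits had the same signs as Psmb8 on these 6 arrays, at a smaller size. Psme2 read -0.27 and -0.54 in experiment 1, -0.11, 0.41 and 0.37 in experiment 2 and 0.57 in Ascl2 null organoids, and its dimmer probe -0.24 and -0.39, then -0.19, 0.44 and 0.24, then 0.60. Psme1 read -0.31 and -0.11, then -0.22, 0.29 and 0.07, then 0.24. Their self-self values ran from -0.12 to 0.14. The other activators and the inhibitor, Psme3, Psme4 and Psmf1, had medians of -0.02 with Tcf7l2 null and Ascl2 overexpression and 0.26 in Ascl2 null organoids, where Psme3 read 0.45 and Psme4 -0.32.

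Among the loading genes, Tap1 went apart from Psmb9 although the 2 start sites share a promoter window. Tap1 read 0.18 and 0.51 in experiment 1, 0.21, 0.13 and 0.18 in experiment 2 and 0.36 in Ascl2 null organoids, with -0.21 and 0.20 on the self-self arrays. Psmb9 less Tap1 was -0.42 and -0.66 in experiment 1, -0.28 in Tcf7l2 null, 0.85 with Ascl2 overexpression in experiment 2 and 1.21 in Ascl2 null organoids, against 0.29 and -0.34 on the self-self arrays. The Tap1 probe was dim, at a mean log2 intensity of 7.41, and the genes are compared by their ratios and not by their levels.

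Tap2 read -0.65 and 0.29 in experiment 1, 0.01, 0.12 and -0.00 in experiment 2 and 0.41 in Ascl2 null organoids, with -0.30 and 0.24 on the self-self arrays. Its 2 arrays of experiment 1 had opposite signs. Tapbp read -0.73 and -0.14, then -0.30, 0.38 and 0.08, then 0.46, with -0.07 and 0.18 on the self-self arrays. A second Tapbp probe gave -0.25 and -0.06, then -0.33, 0.00 and -0.09, then 0.45, and -0.38 and 0.33 on the self-self arrays, so the 2 probes disagreed on Tcf7l2 null with Ascl2 overexpression.

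B2m, the light chain shared by all class I molecules, read 0.11 and -0.48 in experiment 1, -0.11, 0.84 and 0.42 in experiment 2 and 0.18 in Ascl2 null organoids, with 0.11 and -0.09 on the self-self arrays. A second probe, printed as 10 spots on each array, gave 0.06 and -0.55, then -0.13, 0.91 and 0.38, then 0.07, with an SD between its spots of 0.03 to 0.06. Spot noise was thus smaller than the gap between the 2 arrays of experiment 1. The third, dim B2m probe gave -0.48 and -0.39 in experiment 1, 0.01 with Ascl2 overexpression in experiment 2 and -0.36 in Ascl2 null organoids, so it opposed the brightest probe on replicate 1 and in Ascl2 null organoids. With Tcf7l2 null and Ascl2 overexpression its control channel was not well above background, and its value there is a bound, at least 1.14-fold higher. The B2m log2 intensity of own RNA on that array was 12.68, just below the 12.72 to 13.03 of own RNA on the other 3 arrays of experiment 2. Its control channel read 11.84, below the 12.60 to 12.83 of the same dsGFP label on the other 3 arrays.

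**Figure D3:**
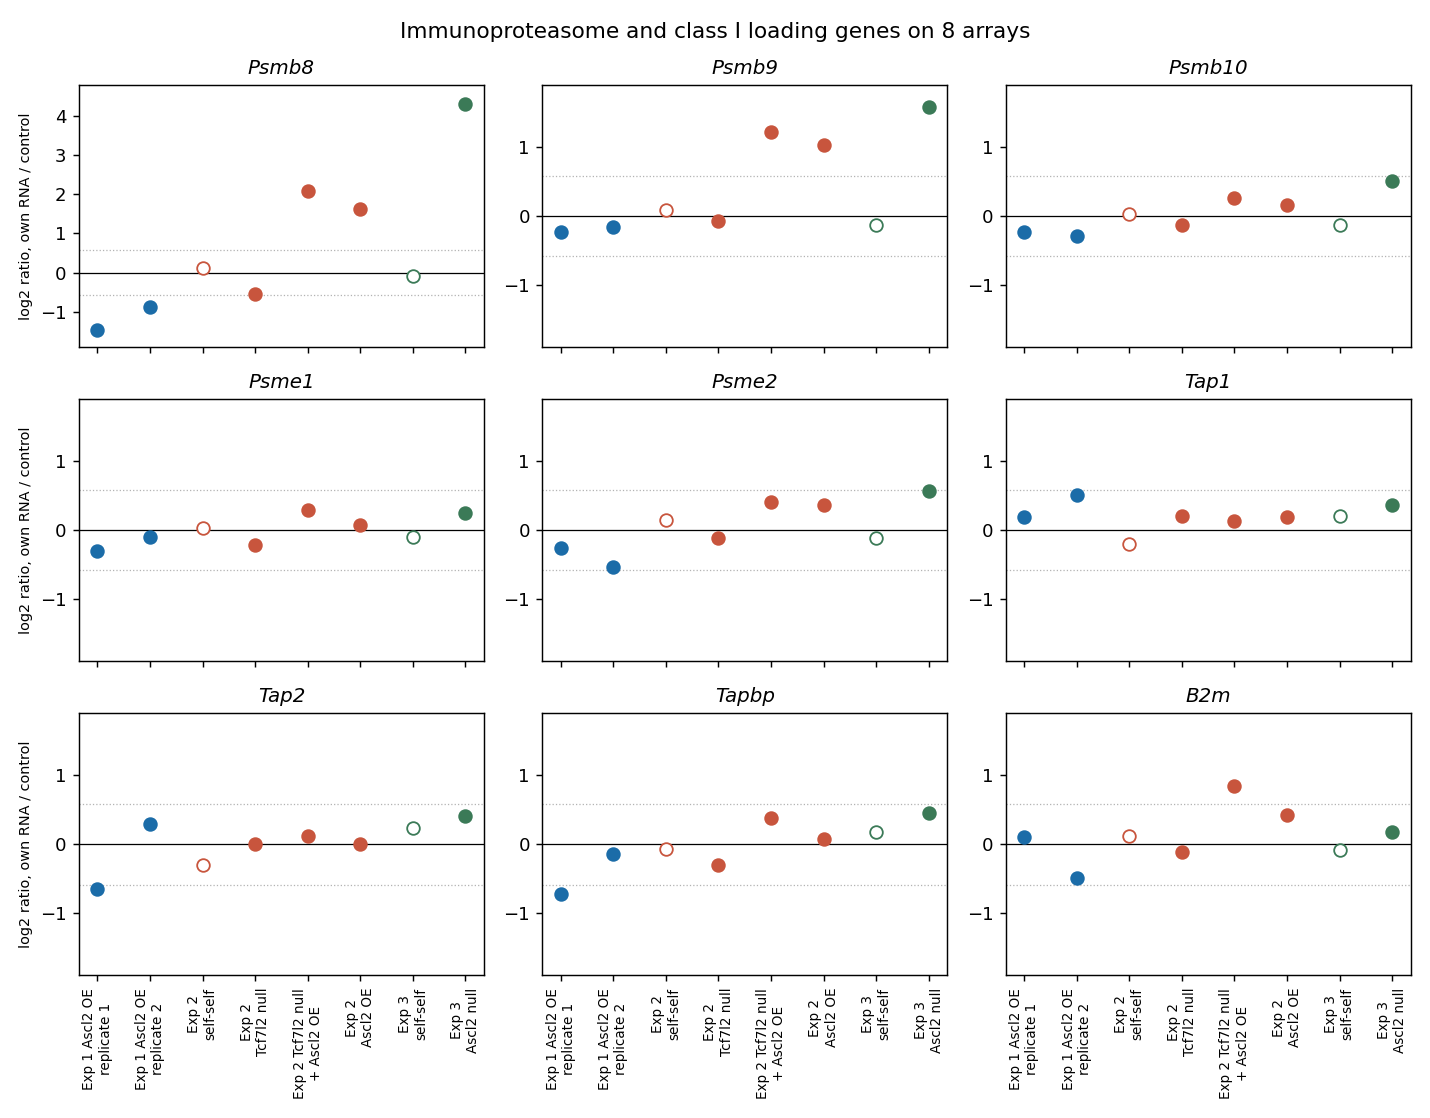
Log2 ratio of own RNA over control (vertical axes) for the 9 genes on the 8 arrays (horizontal axes; OE, overexpression), with open circles for self-self arrays and dotted lines at 1.5-fold. Psmb8 has an axis of its own and reaches 4.31 in Ascl2 null organoids; the remaining 8 genes lie between -0.73 and 1.57.

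Over the 9 genes together, the median ratio was -0.27 and -0.15 in experiment 1, -0.11 in Tcf7l2 null organoids, 0.38 with Ascl2 overexpression added, 0.18 with Ascl2 overexpression in experiment 2 and 0.46 in Ascl2 null organoids. The self-self medians were 0.03 and -0.09, and the median over all genes lay between -0.01 and 0.01 on every array. All 9 genes were above 0 on the arrays of Tcf7l2 null with Ascl2 overexpression and of Ascl2 null, and 8 on that of Ascl2 overexpression in experiment 2, while 7 were below 0 on each array of experiment 1 and on the Tcf7l2 null array. When arrays were centred on their median in place of loess, the median over the 9 turned to 0.52 on replicate 1 of experiment 1 and to 0.24 on the Tcf7l2 null array, while that over all genes there was 0.44 and 0.11. The signs of Psmb9, Psmb10, Psme1, Psme2 and Tapbp on those 2 arrays turned with it, and those of Psmb8 did not. In these bulk cultures, fewer cells of a type and less RNA per cell cannot be told apart.

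At 1.5-fold or more, 3 of the 9 genes (Psmb8, Psmb9 and B2m) were higher on the array of Tcf7l2 null with Ascl2 overexpression, where 4.27% of all genes were. On the Ascl2 overexpression array of experiment 2 there were 2 (Psmb8 and Psmb9) against 3.67% of all genes, and on the Ascl2 null array the same 2 against 6.31%. No gene of the 9 was lower by as much on these 3 arrays, where 5.66%, 3.58% and 6.04% of all genes were. On them the same 2 genes were also at least 2-fold higher, where 1.25%, 1.17% and 2.27% of all genes were. Lower by 1.5-fold or more were 3 on replicate 1 of experiment 1 (Psmb8, Tap2 and Tapbp), against 3.39% of all genes, and 1 on replicate 2 (Psmb8), against 4.88%; none was higher, where 2.75% and 3.03% were. None reached 1.5-fold on the Tcf7l2 null array, where 3.72% of all genes were higher and 3.18% lower. The same held on the self-self arrays, where 0.171% and 2.07% of all genes were higher and 0.436% and 1.26% lower. Psmb8 and Psmb9 were at least 1.5-fold higher on all 3 of the first-named arrays, as were 0.91% of 19229 genes. The arrays of Tcf7l2 null with Ascl2 overexpression and of Ascl2 overexpression share the dsGFP control.

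The effect of Ascl2 overexpression over 3 arrays was tested with limma, which fits every gene and adjusts p by the Benjamini-Hochberg method, with a threshold of 0.05. None of the 9 genes passed in limma, where 0.031% of all genes passed as higher and 0.031% as lower. Of the 9, Tap1 alone had an unadjusted limma p under 0.05 (0.0268), as had 2451 of all 19337 genes. When a fit of all arrays gave experiment 1 an overexpression effect of its own, 1 of the 9 passed for that effect. Tap1 was 0.32 ± 0.11 (SE, n = 3; limma adjusted p = 0.314) and higher on 3 of 3 arrays. The Psmb8 effect was -0.34 ± 0.54 (SE, n = 3; limma adjusted p = 0.880), with 2 arrays below 0 and 1 above it. Its arrays of the 2 experiments had opposite signs.

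The difference between the experiments, experiment 2 less experiment 1, was tested with the opposite signs already known. It has 1 array in one arm, which adds nothing to the estimate of spread. Its 2 residual degrees of freedom come from differences in dye bias between the self-self arrays and the dye swap of experiment 1. Its p thus measures neither the spread between cultures nor that between separate experiments. Psmb8 was 2.94 ± 0.27 (SE) higher in experiment 2 (limma adjusted p = 0.0105; 1 array against 2), the sole member of the 9 to pass, where 0.508% of 19293 genes passed as higher and 0.259% as lower. Without replicate 1 of experiment 1 the difference was 2.47 and did not pass (limma adjusted p = 0.0858), and over 10 alternatives it ran from 2.47 to 3.45, with adjusted p from 0.000853 to 0.376. Psmb9 was 1.26 ± 0.22 (SE) higher and did not pass (limma adjusted p = 0.0788). The experiments differ in control (VillinCreERT2 or dsGFP), slide and scan as well as in culture, which cannot be told apart.

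Both arrays of experiment 1 were below 0 and that of experiment 2 above it for 6 of the 9 genes, namely the 5 immunoproteasome genes and Tapbp, where 12.7% of all genes had this order. In experiment 1 alone, Psmb8 averaged -1.18 ± 0.42 (SD, n = 2), and limma's SE for it was 0.14 (adjusted p = 0.0320). That SE comes from the split fit of all arrays, whose residual spread is that of dye bias. Psmb8 was the 1 member of the 9 to pass there, where 0.569% of all genes passed as lower and 0.372% as higher. It passed in 2 of 9 alternatives, over which its adjusted p ran from 0.00749 to 0.779, and did not pass when either replicate was left out: without replicate 1 it was -0.86 and without replicate 2 -1.49 (limma adjusted p = 0.237 and 0.253).

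In organoids labelled Tcf7l2 null, adding Ascl2 overexpression went with higher ratios for 8 of the 9 genes. The ratio with Ascl2 overexpression less that without it was 2.63 for Psmb8, 1.30 for Psmb9, 0.95 for B2m, 0.68 for Tapbp, 0.51 for Psme1 and Psme2, 0.39 for Psmb10, 0.11 for Tap2 and -0.08 for Tap1. The median was 0.51, against 0.02 over all genes, and 4 of the 9 were at least 1.5-fold higher, where 8.46% of 19286 genes were. For B2m this difference includes the lower control channel described above. Against the array of Ascl2 overexpression alone, the same array was higher by 0.47 for Psmb8, 0.42 for B2m and 0.19 for Psmb9, and none of the 9 differed by 1.5-fold, where 3.42% of 19259 genes were higher and 5.19% lower.

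The rest of the proteasome had medians nearer to 0. The 16 other core and assembly genes had medians of -0.05 on the array of Tcf7l2 null with Ascl2 overexpression and -0.10 on the Ascl2 null array. Their lowest value on both was that of the assembly chaperone Psmg3 (-0.95 and -0.46), and their highest were Psma4 (0.41) and Psma2 (0.36). The 21 genes of the 19S regulator had medians of -0.15 and 0.10 on these arrays, with Psmd10 (0.30) and Psmd1 (0.61) highest and Psmd11 (-0.49) and Psmd7 (-0.29) lowest. Psmd1 read 0.83 on the self-self array of experiment 3. None of these genes passed the limma tests, in either direction.

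Class I heavy chains were mostly below 0 in experiments 1 and 2 after loess. When arrays were centred on their median instead, the heavy chains' medians were 0.20 and -0.77 on replicates 1 and 2 of experiment 1. In experiment 2 they were 0.10, 0.35 and 0.16, so the sign turned on 4 of these 5 arrays. The medians over all genes were then 0.44 and -0.19, and 0.11, 0.04 and 0.07, in the same order. On the self-self array of experiment 2 the heavy chains' median was then 0.44. Of 13 measured heavy chains and class I-like genes, which are near-identical in part and whose probes may bind more than 1 of them, 12 and 11 were below 0 in experiment 1, with medians of -0.54 and -0.31. H2-K1 averaged -0.87 there and passed the limma test of experiment 1 alone (adjusted p = 0.0342), lower on 2 of 2 arrays. In experiment 2, 11, 8 and 11 were below 0 (Tcf7l2 null, Tcf7l2 null with Ascl2 overexpression, Ascl2 overexpression), with medians of -0.29, -0.12 and -0.41. The self-self array of that experiment had 8 of 12 below 0 and a median of -0.15. In Ascl2 null organoids 10 were above 0 with a median of 0.47, but the self-self array of experiment 3 had a median of 0.31 with 8 above 0. H2-T3 was the highest of them, at 1.36 in Ascl2 null organoids and 0.57 in Tcf7l2 null with Ascl2 overexpression, and Cd1d1 (-0.33) and H2-T23 (-0.37) were the lowest. With median centring H2-K1 read 0.01 on replicate 1 and -1.51 on replicate 2 of experiment 1.

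The 9 other loading factors measured had medians of -0.17 with Tcf7l2 null and Ascl2 overexpression and -0.09 in Ascl2 null organoids. The tapasin-related Tapbpl was highest in Ascl2 null organoids (0.74) and the oxidoreductase Pdia3, which works beside tapasin, lowest (-0.60), with 0.31 and -0.51 on that experiment's self-self array. On the array of Tcf7l2 null with Ascl2 overexpression the trimming peptidase Erap1 was highest (0.42) and Ide lowest (-0.44).

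The 19 genes of interferon signalling had medians of 0.03 with Tcf7l2 null and Ascl2 overexpression and -0.01 in Ascl2 null organoids. Irf1, an activator of the immunoproteasome and class I genes, was the highest with Tcf7l2 null and Ascl2 overexpression (0.69), and read -0.55 and -0.37 in experiment 1, -0.33 in Tcf7l2 null, 0.34 with Ascl2 overexpression in experiment 2 and 0.13 in Ascl2 null organoids. Rela was the lowest of the list with Tcf7l2 null and Ascl2 overexpression (-0.53). Tyk2 (0.70) and Ifnar1 (-0.61) were the extremes in Ascl2 null organoids, and read 0.68 and -0.46 on its self-self array. Nlrc5, the class I transactivator, was dim and read 0.38 in Ascl2 null organoids and 0.08 on the self-self array of that experiment.

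The interferon response list had a median near 0 in Ascl2 null organoids, where Psmb8 was highest. Its median over 28 genes was 0.21 with Tcf7l2 null and Ascl2 overexpression, 0.13 with Ascl2 overexpression in experiment 2 and -0.06 in Ascl2 null organoids, and 22, 19 and 13 genes were above 0. In Ascl2 null organoids 5 of the 28 were at least 1.5-fold higher and 3 lower, where 6.31% and 6.04% of all genes were. The antiviral 2-5A synthetase Oas1a was the highest there at 2.55, and the chemokine Cxcl10 the lowest at -1.88. On the self-self array of experiment 3 they read 0.50 and -0.17. Cxcl10 was dim, at a mean log2 intensity of 6.93. Oas1a was also highest with Tcf7l2 null and Ascl2 overexpression (0.95), where Ifitm3 was lowest (-2.58). None of the 28 passed any of the limma tests. Mean log2 intensity on this list ran from 6.36 (Ifit2) to 14.67 (Lgals3bp). Ifit2, Mx1 (6.37) and Oas2 (6.47) passed the detection limit on only 4, 3 and 4 arrays. For genes so dim a ratio near 0 tells little, and the median includes them.

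**Figure D4:**
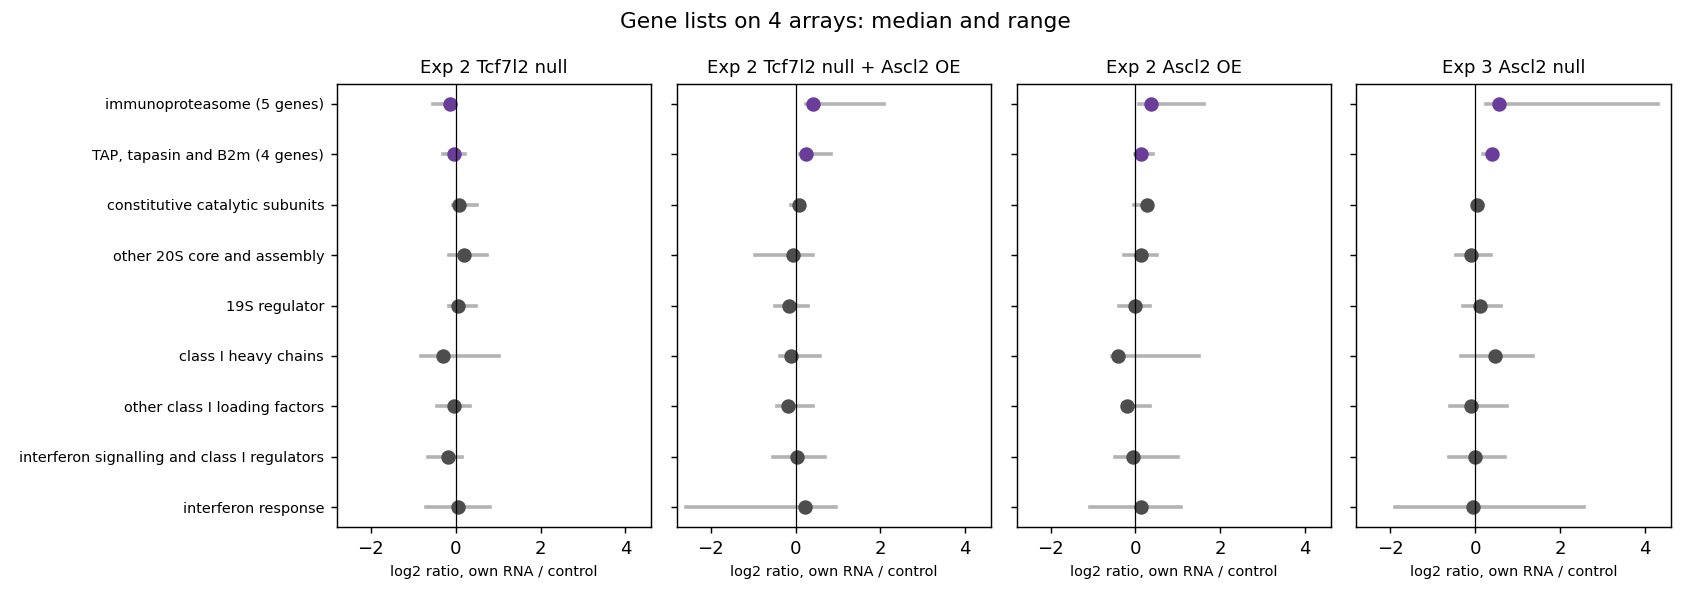
Median (circle) and range (bar) of log2 ratios of own RNA over control (horizontal axes) for the 9 genes in 2 groups and for 7 related gene lists (vertical axis), on 4 arrays (OE, overexpression). The immunoproteasome median is 0.57 in Ascl2 null organoids, where that of interferon response is -0.06 with a range from -1.88 to 2.55. Several interferon response genes are dim.

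Markers of immune cells, which carry immunoproteasomes, were examined beside these results. Of 19 immune markers on the arrays, 6 to 15 were well above background in own RNA and 6 to 13 in control RNA. The log2 of their summed intensity was 13.44 in own and 15.08 in control RNA with Tcf7l2 null and Ascl2 overexpression, 14.46 and 16.15 with Ascl2 overexpression in experiment 2, and 16.09 and 15.44 in Ascl2 null organoids. The lysozyme gene Lyz2, also expressed by Paneth cells, makes up most of that sum. On the array of Tcf7l2 null with Ascl2 overexpression Lyz2 had no ratio after processing, although the sums there include it. Without Lyz2 the sums were 11.18 in own and 11.15 in control RNA, 11.23 and 10.98, and 11.73 and 11.49 on the same arrays. Own RNA was then higher on all 3. It was also higher on the Tcf7l2 null array (11.02 and 10.97) and on replicate 2 of experiment 1 (11.20 and 11.19). On replicate 1 it was lower (11.16 and 11.20). These sums include markers that were not above background. The median ratio of the markers kept by the filter was 0.02 on the array of Tcf7l2 null with Ascl2 overexpression, 0.01 with Ascl2 overexpression in experiment 2 and 0.04 in Ascl2 null organoids. On these arrays 8 of 13, 7 of 14 and 9 of 14 were above 0. Cd14, the brightest of the list after Lyz2, read 0.02, 0.92 and 0.62 on them. Cd3e, a T cell marker, was above background in both channels of all 8 arrays. Ptprc, the pan-leukocyte marker CD45, was above background in own RNA on 3 arrays and in control RNA on 1, with no array that had both, so no ratio is given for it. On the arrays of Tcf7l2 null with Ascl2 overexpression and of Ascl2 overexpression in experiment 2 it was above background in own RNA and not in control RNA, and on the Ascl2 null array in neither. Lyz2 was the highest of the list in Ascl2 null organoids (0.68), where Csf1r (-0.07) was the lowest, and read -1.81 with Ascl2 overexpression in experiment 2. Cd68, the lowest of the list with Tcf7l2 null and Ascl2 overexpression, was above background in neither channel there. The difference of Lyz2 between experiments, -1.86, passed the limma test (adjusted p = 0.0194). The part of immune cells in the ratios of the 9 genes was not tested.

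The genes whose ratios over the 6 arrays were most like the mean of the 9, among 3310 genes that spanned at least 1 on the log2 scale, were Fcgrt, Abhd3, Cyb5b, Npc1l1 and Cplx1, with Pearson correlations of 0.994 to 0.995. Fcgrt encodes the neonatal Fc receptor, a class I-like heavy chain that pairs with B2m, and Npc1l1 the cholesterol importer of enterocytes. Fcgrt read -1.24 and -0.61 in experiment 1, -0.64, 1.31 and 0.56 in experiment 2 and 2.12 in Ascl2 null organoids. Since Psmb8 has the largest ratios, it weighs most in that mean, with a correlation of 0.99 with it, as had Psmb9, against -0.08 for Tap1. These are descriptions over 6 arrays, of which 3 share the dsGFP control and 2 the control of experiment 1. Of the 6, 3 are of Ascl2 overexpression alone.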

How the data were processed

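RNA of 8 organoid samples, each beside a control RNA, was hybridised on Agilent mouse arrays with 2 colours after labelling of 500 ng. The deposited scanner files hold spot intensity from Agilent Feature Extraction 10.5.1.1, per the file headers, and the log10 ratio of Cy5 over Cy3 that this software made. The authors' deposited table is in log2. It matched the scanner ratio on the 6 arrays of experiments 2 and 3 and correlated with it at 0.86 and -0.85 in experiment 1, where replicate 2 was turned; how those values were made is not stated in the labels or headers. Its column medians ran from -0.01 to 0.03.

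Median spot and local background intensity were corrected with normexp (offset 50) and loess within each array (limma 3.58.1, R 4.3.3). Spots with a local background over 2 times the array's median were omitted, a choice made after seeing the data: replicate 2 of experiment 1 had 86, with a Cy3 background of up to 407956 against a median of 34, and normexp's background SD there was 4052 with them and 1.55 without. Control and outlier spots had no weight, and the spots of 1 probe were averaged. A probe entered if either channel was well above background on 2 or more of 8 arrays, and the brightest probe stood for a gene. RefSeq (GRCm38.p6) gave symbols through the probe's own accession for 26918 probes and through another for 111; 14145 kept the array's older name. Loess sets most genes near 0, so a change of all genes in 1 direction cannot be seen.

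The main limma fit used all 8 arrays, with a term for dye, 1 effect for the 3 Ascl2 overexpression arrays and 1 for each further condition (3 residual degrees of freedom). A second fit of all 8 arrays split overexpression by experiment (2 degrees), and its experiment 1 effect is the test named experiment 1 alone. P-values are two-sided, and the fits were checked on simulated data. A condition with a single array gets no p against its control; the difference between experiments sets 1 array against 2. Named genes are the 9 members, the constitutive catalytic subunits, the highest and lowest of each list on the arrays of Ascl2 null and of Tcf7l2 null with Ascl2 overexpression, list genes past the limma threshold, and the 5 genes most like the members' mean. Further values of Irf1, Nlrc5, Ptprc, Cd3e and Cd14, and the names of dim interferon response genes, were added after they were seen. Members and lists were chosen with earlier results of these data known. The closing section gives the alternatives tried.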

Additional observations from a re-analysis of the deposited data

Results flagged for a closer look

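Psmb8 differed between the experiments under the same overexpression contrast: the value of experiment 2 less that of experiment 1 was 2.94 ± 0.27 (SE; limma adjusted p = 0.0105), with 2 of 2 arrays below 0 in experiment 1 and the 1 array of experiment 2 above it. This test has 1 array in one arm, and its spread is that of dye bias and not of cultures. A further 5 genes had both arrays of experiment 1 below 0 and that of experiment 2 above it, and none of these passed the limma test of the difference. The array of experiment 2 less the mean of experiment 1 was 1.23 for Psmb9, 0.77 for Psme2, 0.51 for Tapbp, 0.42 for Psmb10 and 0.28 for Psme1. The controls differ between the experiments, and their part in these differences cannot be told apart from that of the cultures.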

How the results depend on the processing

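With arrays centred on their median in place of loess, the members' medians became 0.52 and -0.64 in experiment 1, 0.24, 0.92 and 0.74 in experiment 2 (Tcf7l2 null, Tcf7l2 null with Ascl2 overexpression, Ascl2 overexpression), 0.31 in Ascl2 null organoids and 0.41 and -0.25 on the self-self arrays, and the added effect of Ascl2 overexpression in Tcf7l2 null organoids became 0.70. Medians over all genes then ran from -0.19 to 0.44. Members at 1.5-fold or more became 5 on replicate 2 of experiment 1, 4 on the self-self array of experiment 2, 7 with Tcf7l2 null and Ascl2 overexpression and 6 with Ascl2 overexpression in experiment 2; Tapbp turned to 0.076 on replicate 1. With the scanner's ratio or the authors' values, replicate 2 had a median of -0.24 and 2 members at 1.5-fold, Tcf7l2 null 1 and Ascl2 null 4; with offset 16 replicate 2 had 2 and Tcf7l2 null 1. With all spots in the background fit, an alternative chosen after seeing the data, replicate 2 had a median of -0.042 and 0 members at 1.5-fold. Less the self-self array, the medians were -0.22 in Tcf7l2 null, 0.30 with Ascl2 overexpression and 0.34 in Ascl2 null organoids, with 1 member at 1.5-fold in the first and 4 in the last. The mean of all probes gave 0.29 with Tcf7l2 null and Ascl2 overexpression. The cause of these moves was not tested.

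Over 3 arrays 0 members passed in limma under 14 of 15 alternatives, and 1 with experiment 1 alone. All genes passing were 12, and 0 to 182 under the alternatives: 0 with the scanner's ratio, the authors' values, median centring, all spots, a dye term for each experiment, averaged replicates or either replicate left out, 175 without a dye term, and 20 without a filter. The Psmb8 difference between experiments was lost with median centring (0 members; 2.70, limma adjusted p = 0.376), with all spots (0 members; 2.65, limma adjusted p = 0.0810) and without replicate 1, so leaving out a replicate gave 0 to 1 members. That test passed 148 genes, 244 with offset 16, 84 with all spots, 0 with median centring and 27 without replicate 1. In experiment 1 alone, fits chosen after seeing the data, 0 members passed with the scanner's ratio, the authors' values, median centring, no background correction, all spots, and 0 to 0 with a replicate left out. Genes passing, 182, were then 2, 23, 0, 50, 0 and 3, and 369 with offset 16. A dye term for each experiment could not be fitted to the difference. No paired analysis was possible because the compared groups share no 2 replicate numbers.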
